A study of Mus musculus with 12 samples.

Results

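The 9 genes of sphingosine-1-phosphate (S1P) metabolism and signalling described here were compared across 4 populations of cells labelled as mouse fetal liver. They were chosen by name: the kinases *Sphk1* and *Sphk2*, the exporters *Spns2* and *Mfsd2b*, the receptors *S1pr1*, *S1pr2* and *S1pr3*, the phosphatase *Sgpp1* and the lyase *Sgpl1*. These 9 genes, of 38127 in the count files, each matched 1 gene name. All 9 passed edgeR's low count filter in the fits used for the reported tests. Under the stricter alternative of at least 10 counts in every library, *S1pr3* dropped out of every comparison that involved P2 or CD31+ cells. *Mfsd2b* is among the genes that the study itself singled out from these same P2 and E14.5 CD54+CD31- libraries, so its direction in that comparison is not independent evidence.

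The study sequenced RNA from cells sorted from livers of C57BL/6 mouse embryos to describe an erythroid progenitor and its cellular neighbours. All 4 groups were Ter119-CD45-, that is, without mature red cell and most leukocyte surface antigens, and each had 3 libraries. P2 cells were CD54-CD31-Kit+CD24+ at embryonic day (E) 14.5, CD31+ cells were CD54+CD31+ at E14.5, and CD54+CD31- cells were sorted at E14.5 and at E18.5. The E14.5 libraries came from independent litters according to the study, whereas for E18.5 no statement on litters or pooling was found, so p-values there measure only the spread between these libraries. Each group is a surface phenotype and can hold more than 1 cell type.

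S1P is a lipid made inside cells by phosphorylation of sphingosine and carried out of them by dedicated transporters. Outside the cell it acts on G protein-coupled receptors that steer endothelial junctions, vessel growth and the exit of lymphocytes from tissues. Red cells and endothelium are known as its main sources in blood and lymph, and it is removed either by phosphatases that return sphingosine or by a lyase that breaks the backbone.

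Total counts ranged from 40714017 to 64368883 per library. Levels are CPM (counts scaled to a common library size) on a library size adjusted by TMM, and they are compared between genes only after division by exon length (CPM per exon kb). A gene was called where edgeR's quasi-likelihood test gave an adjusted p below 0.05 over all genes tested. The marker lists fitted the sorts at E14.5. The summed level of 10 erythroid progenitor markers was 3798 to 4045 CPM in P2 cells and at most 832 elsewhere. All of these but *Tfrc* are among the genes that the study itself singled out from these same P2 and E14.5 CD54+CD31- libraries. Their excess in P2 cells over E14.5 CD54+CD31- cells is therefore not independent evidence for the sort. The sum of 10 endothelial markers was 9388 to 9957 in CD31+ cells and at most 389 elsewhere. That of 9 hepatoblast markers was 69038 to 79366 in E14.5 CD54+CD31- cells and at most 908 in the other E14.5 groups. The defining red cell gene *Alas2* was at 0 in all 12 libraries, although *Klf1* had 397 ± 43.6 CPM (SD, n = 3) in P2 cells. Whether reads of *Alas2* could be counted was not tested, so this 0 is not taken as absence of its RNA. The E18.5 libraries stood apart: they held 3952 to 4378 CPM of stellate and mesenchymal markers and 9029 to 20269 CPM of lung epithelium markers, which were at most 237 and 250 CPM in the other 9 libraries. Among these markers *Sftpc*, a surfactant protein of the lung, had 7623 ± 4117 CPM (SD, n = 3) and *Nkx2-1*, a transcription factor of lung and thyroid, 289 ± 77.7, so these libraries go in part against their liver label, and whether they hold liver cells alone could not be settled here. Replicate 1 at E18.5 had the most lung marker RNA (20269) and the least hepatoblast marker RNA (5494 CPM, against 35810 and 46091 in replicates 2 and 3), so the tests of E18.5 against E14.5 are also given without it. In bulk RNA, fewer cells of a type and less RNA per cell cannot be told apart.

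At E14.5 the kinase *Sphk1* differed between populations by up to 17.5-fold and the kinase *Sphk2* by at most 1.48-fold. *Sphk1* (chromosome 11 of GRCm38, 116530925 to 116536674, plus strand), a mostly cytosolic kinase, had 70.5, 71.3 and 66.4 CPM in P2 replicates 1, 2 and 3. It had 3.88, 7.71 and 4.66 CPM in E14.5 CD54+CD31- cells, 2.77, 5.83 and 3.20 in CD31+ cells, and 29.5, 12.7 and 13.0 in E18.5 CD54+CD31- cells. Every P2 library lay above the other 9, and the E18.5 libraries lay between P2 and the remaining E14.5 libraries, without overlap. The level in P2 cells was 12.7-fold that in E14.5 CD54+CD31- cells (log2 fold change 3.67, SE 0.31, adjusted p = 1.80e-06, edgeR) and 17.5-fold that in CD31+ cells (4.13, SE 0.31, adjusted p = 8.74e-07). CD31+ and E14.5 CD54+CD31- cells overlapped and were not called different (-0.47, SE 0.30, adjusted p = 0.191). Without CD31+ replicate 2 this difference was called (-0.94, adjusted p = 0.0104). Over its alternatives the adjusted p ranged from 0.0104 to 0.530.

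At E18.5 *Sphk1* was 3.91-fold the E14.5 level in CD54+CD31- cells (log2 fold change 1.97, SE 0.43, adjusted p = 0.00584). Replicate 1, the library with the most lung marker RNA, was the highest of the 3. Without it the log2 fold change was 1.43 (adjusted p = 0.000765). The part of the lung and mesenchymal RNA in this difference was not tested, and age and cell mixture cannot be told apart here.

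*Sphk2* (chromosome 7, 45709467 to 45718002, minus strand), the kinase also found in the nucleus and mitochondria, had 16.8, 16.8 and 17.1 CPM in P2 cells. It had 16.9, 16.0 and 16.3 in E14.5 CD54+CD31- cells, 9.34, 13.6 and 11.2 in CD31+ cells, and 15.2, 12.3 and 12.1 at E18.5. Its levels over all 12 libraries ranged from 9.34 to 17.1 CPM, and CD31+ cells were lowest. CD31+ cells were 1.45-fold below E14.5 CD54+CD31- cells (log2 fold change -0.54, SE 0.13, adjusted p = 0.00487) and 1.48-fold below P2 cells (P2 against CD31+ 0.56, SE 0.13, adjusted p = 0.00304), though the latter call was lost with the authors' scaling factors (0.20, adjusted p = 0.179; range over its alternatives 0.000284 to 0.179). P2 and E14.5 CD54+CD31- cells overlapped (0.02, SE 0.13, adjusted p = 0.887, and -0.24 with the authors' factors). The E18.5 libraries lay just below the E14.5 CD54+CD31- libraries, a difference that was not called (-0.13, SE 0.13, adjusted p = 0.424, and 0.11 with the authors' factors), nor was it without E18.5 replicate 1 (-0.26, adjusted p = 0.0551). *Sphk2* shares exon bases on the opposite strand with *Dbp* (539 bases) and *Rpl18* (373 bases), and since the strand setting of the counting is not given, reads there cannot be assigned to one gene with certainty.

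Per exon kb, the 2 kinases exchanged places between populations. *Sphk1* made up 78.5%, 78.7% and 77.2% of the summed kinase level in the P2 libraries, 16.7%, 29.5% and 19.9% in E14.5 CD54+CD31- libraries, 20.5%, 27.2% and 20.0% in CD31+ libraries, and 62.9%, 47.5% and 48.3% at E18.5. So *Sphk1* exceeded *Sphk2* in every P2 library and was below it in every other E14.5 library. The mean difference between P2 and E14.5 CD54+CD31- cells was 56.1 percentage points (exact permutation p = 0.1, two-sided, adjusted 0.12 over 6 pairs of groups), and 0.1 is the smallest p that 3 libraries against 3 allow. The share in E14.5 CD54+CD31- cells minus that in CD31+ cells was -0.524 percentage points (exact permutation p = 0.8).

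The 2 exporters marked different populations. *Mfsd2b*, the exporter of red cells and platelets, was highest in P2 cells, while *Spns2*, the exporter of endothelium, was highest in CD31+ cells. *Mfsd2b* (chromosome 12, 4862440 to 4874359, minus strand) had 134, 136 and 138 CPM in the P2 libraries. It had 24.2, 37.4 and 29.9 in CD31+ cells, 13.9, 21.4 and 15.6 in E14.5 CD54+CD31- cells, and 4.10, 7.19 and 5.70 at E18.5. The 4 groups did not overlap with their neighbours in this order, and each step was called. P2 cells were 7.92-fold above E14.5 CD54+CD31- cells (log2 fold change 2.98, SE 0.19, adjusted p = 2.18e-07) and 4.42-fold above CD31+ cells (2.14, SE 0.18, adjusted p = 1.96e-06). CD31+ cells were 1.79-fold above E14.5 CD54+CD31- cells (0.84, SE 0.18, adjusted p = 0.00185). The E18.5 level was 2.63-fold below the E14.5 level (-1.39, SE 0.25, adjusted p = 0.00218), and without replicate 1 the change was -1.22 (adjusted p = 0.000544).

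*Spns2* (chromosome 11, 72451638 to 72489904, minus strand) had 68.8, 78.9 and 73.0 CPM in CD31+ cells and 27.9, 36.5 and 34.7 in P2 cells. It had 21.5, 17.6 and 17.8 in E14.5 CD54+CD31- cells and 8.99, 10.3 and 10.2 at E18.5. Again no neighbouring groups overlapped. CD31+ cells were 2.24-fold above P2 cells (P2 against CD31+ -1.17, SE 0.12, adjusted p = 1.14e-05) and 3.85-fold above E14.5 CD54+CD31- cells (1.95, SE 0.13, adjusted p = 3.73e-07). P2 cells were 1.72-fold above E14.5 CD54+CD31- cells (0.78, SE 0.13, adjusted p = 0.000261), and the E18.5 level was 1.70-fold below the E14.5 level (-0.77, SE 0.13, adjusted p = 0.00209, and -0.73 without replicate 1, adjusted p = 0.00135). *Spns2* shares 131 exon bases on the opposite strand with the abundant gene *Mybbp1a*, which had 866 to 940 CPM in P2 cells, 359 to 400 in E14.5 CD54+CD31- cells and 250 to 278 in CD31+ cells. *Mybbp1a* moved with *Spns2* between P2 and E14.5 CD54+CD31- cells but was lowest at E14.5 in CD31+ cells, where *Spns2* was highest. Its part in the P2 counts of *Spns2* was not tested.

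On the scale of CPM per exon kb, *Mfsd2b* gave 76.6% ± 2.31 (SD, n = 3) of the summed level of the 2 exporters in P2 cells, 41.3% ± 7.61 in E14.5 CD54+CD31- cells, 31.0% ± 4.53 at E18.5 and 24.5% ± 2.75 in CD31+ cells. In P2 cells the 26.4 ± 0.381 CPM per exon kb of *Mfsd2b* was the highest of the 9 genes, and *Sphk1* followed with 14.5 ± 0.552.

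**Figure D1:**
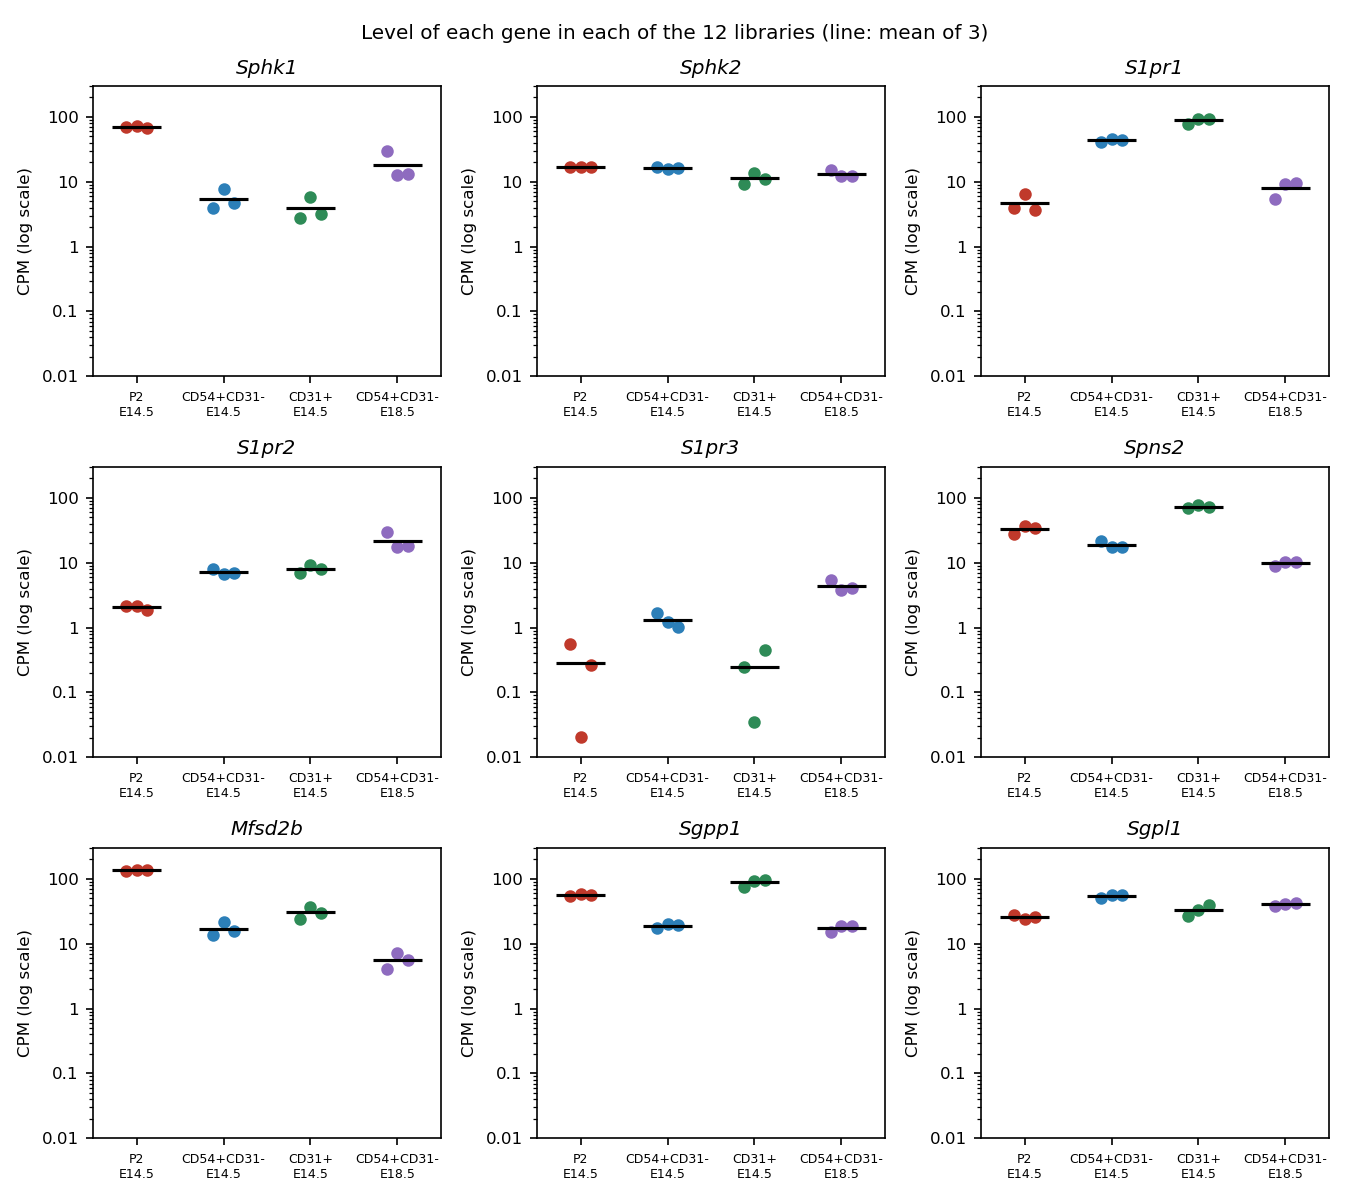
Level of each of the 9 genes in CPM (log scale, the same in each panel) in the 12 libraries, 1 point per library in replicate order and a line at the mean of 3. *Sphk1* (66.4 to 71.3 CPM) and *Mfsd2b* (134 to 138) were highest in P2 libraries, *S1pr1*, *Spns2* and *Sgpp1* in CD31+ libraries, and *Sphk2* kept within 9.34 to 17.1 CPM.

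*Sphk1* and *Mfsd2b* were the 2 members with the largest excess in P2 cells over both other E14.5 populations, so the bases before their start sites are shown. RefSeq start sites of GRCm38.p6 gave 13 windows of 250 bases for 8 of the 9 genes. Both windows below hold no annotated exon base of their own gene, and exons of other genes were not looked for. The *Sphk1* window lies within the span of the gene, which begins at 116530925. Capitals mark letters of the kind that GATA factors can bind. They were searched on both strands as GATA with A or T before it and A or G after it. The first is 1 of 5 *Sphk1* windows (chr11:116532194-116532443, plus strand) and the second the 1 *Mfsd2b* window (chr12:4874360-4874609, minus strand), each written 5′ to 3′ along its gene.
Sphk1: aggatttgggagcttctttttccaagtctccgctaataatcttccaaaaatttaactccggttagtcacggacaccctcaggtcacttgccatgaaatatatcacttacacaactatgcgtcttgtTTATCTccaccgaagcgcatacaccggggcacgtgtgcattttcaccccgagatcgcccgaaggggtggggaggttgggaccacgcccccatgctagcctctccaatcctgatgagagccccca
Mfsd2b: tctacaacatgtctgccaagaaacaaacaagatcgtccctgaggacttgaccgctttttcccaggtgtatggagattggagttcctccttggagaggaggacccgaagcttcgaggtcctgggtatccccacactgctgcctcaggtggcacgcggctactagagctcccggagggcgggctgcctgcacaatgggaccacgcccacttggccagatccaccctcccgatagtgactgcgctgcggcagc
The *Sphk1* window held 1 such match, 124 bases before the start site, and the *Mfsd2b* window held none. Among the 13 windows 3 had a match, namely 2 overlapping *Sphk1* windows with the same letters and the *Spns2* window at 119 bases, against 26.5% of 32851 windows of all genes. The letters CACCC, the core read by KLF1 and its relatives, occurred 3 times in this *Sphk1* window and 1 time in the *Mfsd2b* window, and 52.0% of all windows held them. The GATA and CACCC matches did not overlap. A match is a description of letters only, and which start site the cells used was not measured.

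Because some erythroid RNA is found in the other sorts, *Sphk1* and *Mfsd2b* are given beside the erythroid progenitor markers. In E14.5 CD54+CD31- cells the 10 markers had between 4.39% (*Myb*) and 27.3% (*Tfrc*) of their mean P2 level, with a median of 14.4%. *Mfsd2b* stood at 12.5% and *Sphk1* at 7.80%, both within that range. *Mfsd2b* and all 10 markers but *Tfrc* were singled out by the study as higher in P2 cells in these same libraries. That *Mfsd2b* lay among them here is thus partly fixed by that choice. In CD31+ cells the markers ran from 8.25% (*Ermap*) to 30.4% (*Tal1*), with a median of 13.8%. *Mfsd2b* stood at 22.5%, within that range, and *Sphk1* at 5.66%, below all 10. CD31+ cells also held 509 to 813 CPM of megakaryocyte and platelet markers, against at most 132 in the other libraries. The highest gene of that list there was *Vwf*, with 210 ± 30.9 CPM (SD, n = 3), and whether endothelial cells gave it was not tested. At E18.5 the markers ran from 2.18% (*Klf1*) to 15.9% (*Tfrc*) and *Mfsd2b* stood at 4.18%, whereas *Sphk1* stood at 26.5%, above all 10.

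The order of the libraries within a group followed the erythroid markers in some groups. In E14.5 CD54+CD31- cells the summed markers were 534, 832 and 633 CPM in replicates 1, 2 and 3, and both *Sphk1* and *Mfsd2b* followed the same order. In CD31+ cells the sums were 440, 596 and 540 CPM, and both genes again followed that order. At E18.5 the sums were 147, 296 and 256 CPM, an order that *Mfsd2b* followed and *Sphk1* did not, since replicate 1 had the least marker RNA and the most *Sphk1* (29.5 CPM, against 12.7 and 13.0). In P2 cells the sums were 4045, 3798 and 3883 CPM, and neither gene followed their order. Some other lists had the same order of libraries. In CD31+ cells the megakaryocyte and platelet markers did (509, 813 and 666 CPM). In E14.5 CD54+CD31- cells the stellate and mesenchymal markers did (120, 237 and 147), and at E18.5 the macrophage markers (51, 154 and 141). The endothelial markers had it in none of these groups. Such an order is thus not particular to the erythroid list. The part of erythroid RNA in the levels outside P2 cells was not tested.

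**Figure D2:**
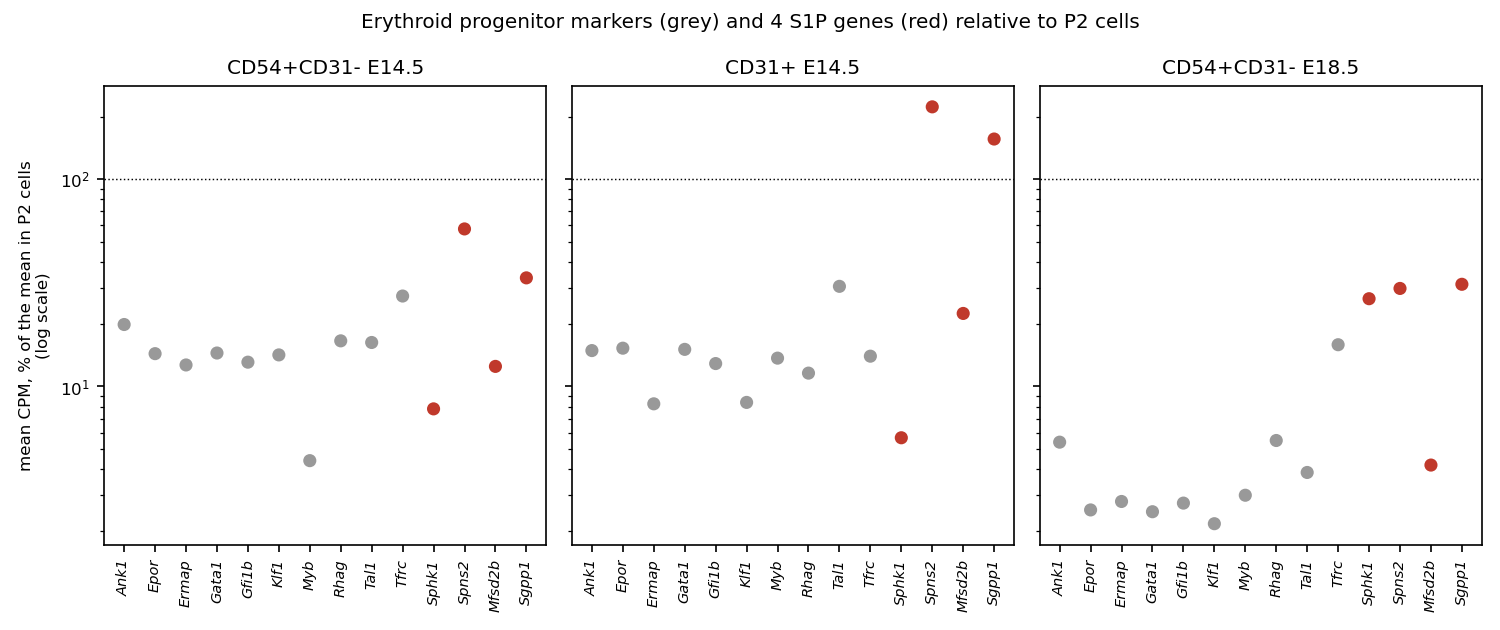
Mean CPM in each of the other 3 groups as a percent of the mean in P2 cells (log scale), for 10 erythroid progenitor markers in grey and 4 S1P genes in red. The dotted line is the P2 level. *Mfsd2b* and all markers but *Tfrc* were singled out by the study from these same P2 and E14.5 CD54+CD31- libraries. *Mfsd2b* lay among the markers in each panel (12.5%, 22.5% and 4.18%), *Sphk1* lay below all markers in CD31+ cells (5.66%) and above all at E18.5 (26.5%), and *Spns2* and *Sgpp1* exceeded the P2 level in CD31+ cells.

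*S1pr1*, which couples to inhibitory G proteins and stabilises endothelial junctions, was the main receptor of CD31+ and E14.5 CD54+CD31- cells and was low in P2 cells. *S1pr1* (chromosome 3, 115710433 to 115715072, minus strand) had 78.7, 92.7 and 94.0 CPM in CD31+ cells and 40.5, 46.2 and 44.2 in E14.5 CD54+CD31- cells. It had 5.48, 9.24 and 9.58 at E18.5 and 3.90, 6.56 and 3.72 in P2 cells. The CD31+ libraries lay above all others and the E14.5 CD54+CD31- libraries came next, while the E18.5 and P2 libraries overlapped.

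P2 cells had 18.9-fold less *S1pr1* than CD31+ cells (log2 fold change -4.24, SE 0.21, adjusted p = 7.38e-08) and 9.35-fold less than E14.5 CD54+CD31- cells (-3.22, SE 0.20, adjusted p = 2.04e-07). CD31+ cells were 2.02-fold above E14.5 CD54+CD31- cells (1.01, SE 0.18, adjusted p = 0.000628). The level at E18.5 was 4.74-fold below that at E14.5 (-2.25, SE 0.21, adjusted p = 0.000132), and without replicate 1 the change was -2.04 (adjusted p = 3.90e-07).

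*S1pr1* did not follow the endothelial markers across the sorts. The 10 endothelial markers summed to 40.2, 50.9 and 68.7 CPM in E14.5 CD54+CD31- cells and to 9785, 9957 and 9388 CPM in CD31+ cells. In P2 cells they summed to 58.8, 389 and 105 CPM, a range that overlaps with that of E14.5 CD54+CD31- cells, although 8 of the 10 markers were called higher in P2 than in E14.5 CD54+CD31- cells and none lower (median log2 fold change 2.17). At E14.5 the CD54+CD31- cells had 43.6 ± 2.90 CPM of *S1pr1* (SD, n = 3) and CD31+ cells 88.5 ± 8.48. In P2 cells replicate 2 had both the most endothelial marker RNA (389 CPM) and the most *S1pr1* (6.56 CPM). Its part in the P2 level was not tested.

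**Figure D3:**
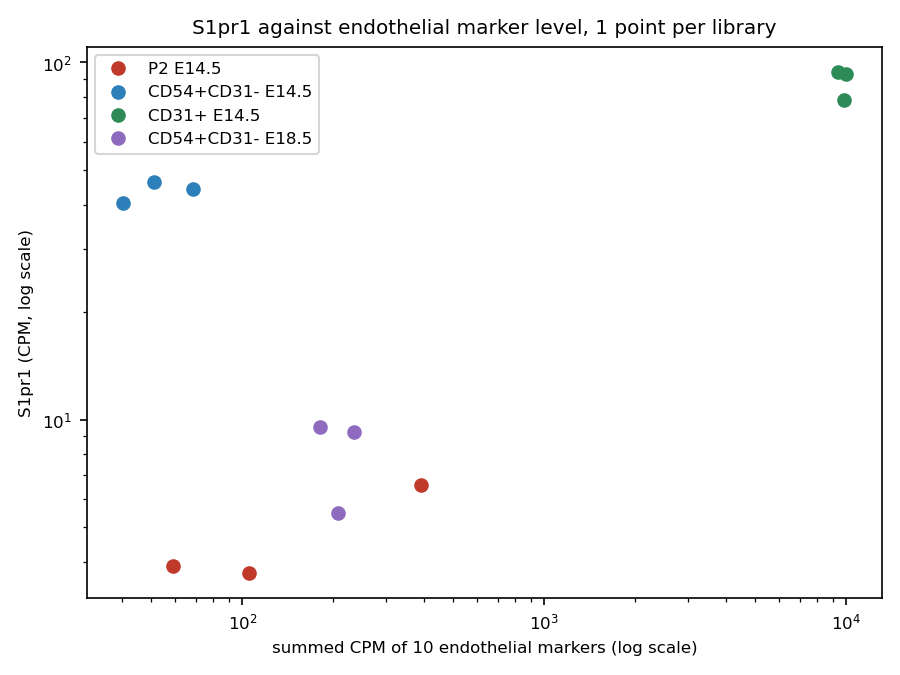
*S1pr1* in CPM against the summed CPM of 10 endothelial markers (both log scales), 1 point per library, coloured by group. The 3 E14.5 CD54+CD31- libraries sit at 40.5 to 46.2 CPM of *S1pr1* with 40.2 to 68.7 CPM of the markers, and the CD31+ libraries at 78.7 to 94.0 CPM with 9388 to 9957 CPM.

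*S1pr2* (chromosome 9, 20962361 to 20976781, minus strand), a receptor that restrains cell migration, was highest at E18.5. It had 30.3, 17.3 and 18.0 CPM there, 6.90, 9.14 and 8.0 in CD31+ cells, 7.92, 6.74 and 6.96 in E14.5 CD54+CD31- cells, and 2.16, 2.12 and 1.87 in P2 cells. CD31+ and E14.5 CD54+CD31- libraries overlapped (log2 fold change 0.14, SE 0.16, adjusted p = 0.446), and every P2 library lay below them. P2 cells were 3.56-fold below E14.5 CD54+CD31- cells (-1.83, SE 0.17, adjusted p = 3.91e-06) and 3.94-fold below CD31+ cells (-1.98, SE 0.17, adjusted p = 2.16e-06). At E18.5 *S1pr2* was 3.46-fold the E14.5 level (1.79, SE 0.26, adjusted p = 0.000885), and without replicate 1, again the highest of the 3, the log2 fold change was 1.46 (adjusted p = 1.23e-05).

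*S1pr3* (chromosome 13, 51408639 to 51422797, plus strand), a receptor of smooth muscle and other stromal cells among others, had the lowest level per exon kb of the 9 genes in each group. It had 355, 298 and 292 counts (5.49, 3.86 and 4.04 CPM) at E18.5 and 59, 38 and 42 counts (1.67, 1.2 and 1.04 CPM) in E14.5 CD54+CD31- cells. It had 24, 1 and 14 counts in P2 cells and 14, 2 and 29 counts in CD31+ cells, at most 0.551 CPM in either. The rise at E18.5 was 3.90-fold (log2 fold change 1.96, SE 0.28, adjusted p = 0.000894), and 1.77 on the log2 scale without replicate 1 (adjusted p = 0.000368). The 3952 to 4378 CPM of stellate and mesenchymal markers at E18.5, against 120 to 237 in E14.5 CD54+CD31- cells, moved with it, and their part was not tested.

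At E14.5 *S1pr3* was called lower in P2 (-2.24, SE 0.88, adjusted p = 0.0425) and in CD31+ cells (-2.37, SE 0.87, adjusted p = 0.0350) than in CD54+CD31- cells, on few counts. In P2 the call was lost without any 1 of P2 replicates 2 and 3 and CD54+CD31- replicates 1, 2 and 3 (log2 fold changes -2.38 to -1.68, adjusted p 0.0667 to 0.113), and without P2 replicate 1 it was called, with a log2 fold change of -3.15. In CD31+ cells it was lost without CD31+ replicate 1 or 2 or any CD54+CD31- replicate (-2.52 to -1.95, adjusted p 0.0555 to 0.0894), and without CD31+ replicate 3 it was called, at -3.24. P2 and CD31+ cells overlapped (0.13, SE 0.90, adjusted p = 0.905, and -0.27 with the authors' factors).

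The make-up of the receptor transcripts, per exon kb and with the 2 further receptors *S1pr4* and *S1pr5* included, differed by group. *S1pr1* gave 93.3% ± 0.210 (SD, n = 3) of the summed level in CD31+ cells, 90.5% ± 0.557 in E14.5 CD54+CD31- cells, 49.5% ± 6.47 in P2 cells and 41.4% ± 13.5 at E18.5. In P2 cells the second receptor was *S1pr4*, known from blood cells, with 38.9% ± 6.02. At E18.5 *S1pr2* gave 41.7% ± 11.3, above *S1pr1* in replicate 1 (54.7% against 25.9%) and below it in replicates 2 and 3 (35.2% against 49.2% in each). The summed receptor level was 31.1 ± 2.96 CPM per exon kb in CD31+ cells, 15.8 ± 0.977 in E14.5 CD54+CD31- cells, 6.50 ± 0.406 at E18.5 and 3.09 ± 0.645 in P2 cells, and the ranges did not overlap.

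*S1pr4* itself was low, with 2.20, 3.27 and 3.08 CPM in P2 cells and 2.17, 2.58 and 2.44 in CD31+ cells. It had 0.0283, 0.629 and 0.0987 CPM in E14.5 CD54+CD31- cells. P2 cells were above E14.5 CD54+CD31- cells (log2 fold change 3.54, SE 0.66, adjusted p = 0.000684) and were not called different from CD31+ cells (0.24, SE 0.53, adjusted p = 0.698).

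**Figure D4:**
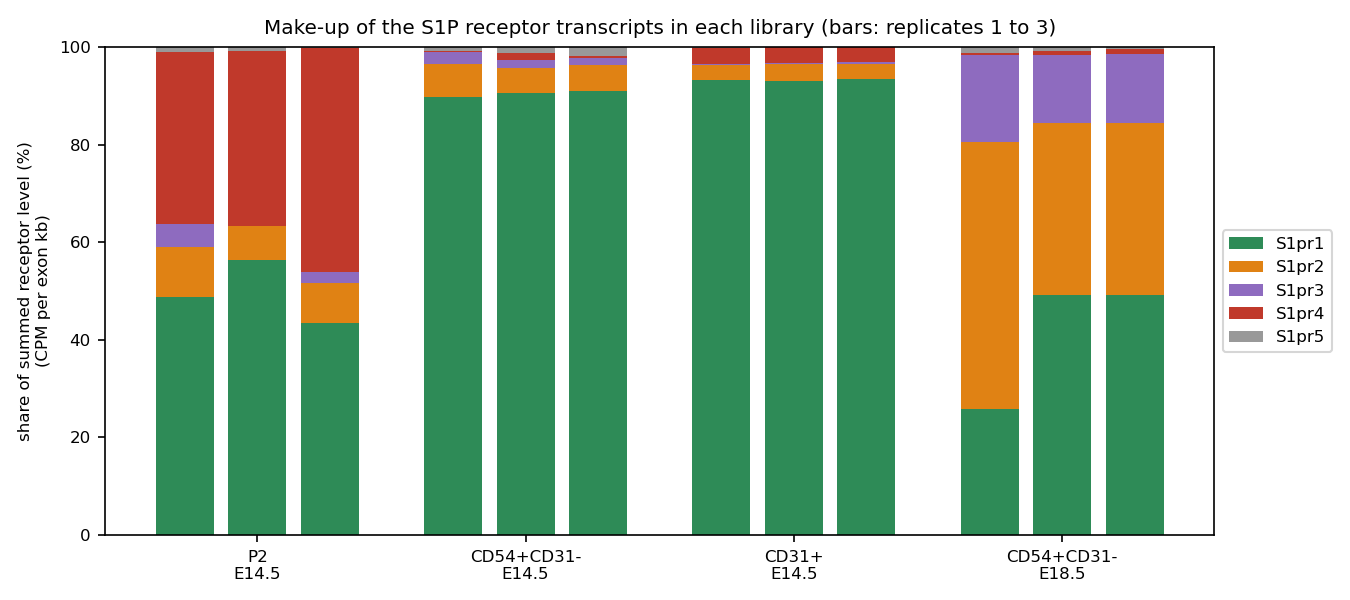
Share of each of 5 S1P receptors in the summed receptor level (CPM per exon kb, bars from 0 to 100%), 1 bar per library in replicate order within each group. *S1pr1* fills 89.8% to 93.5% of the CD31+ and E14.5 CD54+CD31- bars, *S1pr4* takes 35.2% to 45.9% of the P2 bars, and *S1pr2* takes 35.2% to 54.7% at E18.5.

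Of the enzymes that remove S1P, the phosphatase and the lyase were distributed differently. *Sgpp1* (chromosome 12, 75714249 to 75735729, minus strand) returns S1P to sphingosine in the endoplasmic reticulum. It had 76.1, 93.8 and 95.8 CPM in CD31+ cells, 55.5, 58.3 and 56.7 in P2 cells, 17.5, 20.2 and 19.2 in E14.5 CD54+CD31- cells, and 15.3, 19.0 and 18.7 at E18.5. CD31+ and P2 libraries lay above all CD54+CD31- libraries, which overlapped between the 2 ages. CD31+ cells were 4.65-fold (log2 fold change 2.22, SE 0.11, adjusted p = 3.49e-08) and P2 cells 2.96-fold (1.57, SE 0.11, adjusted p = 3.50e-07) above E14.5 CD54+CD31- cells. P2 cells were 1.57-fold below CD31+ cells (-0.65, SE 0.10, adjusted p = 0.000188). The age difference was 0.08 (SE 0.11, adjusted p = 0.534), and it was called only with the authors' factors among its alternatives (0.32, adjusted p = 0.0343; range 0.0343 to 0.931). Without E18.5 replicate 1 it was 0.16 (adjusted p = 0.191).

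*Sgpl1* (chromosome 10, 61098642 to 61147703, minus strand), the lyase of the irreversible step, was highest where *Sgpp1* was low. It had 51.7, 56.7 and 56.6 CPM in E14.5 CD54+CD31- cells, 37.6, 41.4 and 43.0 at E18.5, 27.0, 33.2 and 39.7 in CD31+ cells and 28.1, 23.7 and 26.0 in P2 cells. The E14.5 CD54+CD31- libraries lay above all others, and CD31+ libraries overlapped with both E18.5 and P2 libraries. P2 cells were 2.14-fold (-1.10, SE 0.13, adjusted p = 3.26e-05) and CD31+ cells 1.66-fold (-0.73, SE 0.13, adjusted p = 0.000725) below E14.5 CD54+CD31- cells.

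The smaller *Sgpl1* differences depended on the processing. P2 against CD31+ cells gave -0.37 (SE 0.13, adjusted p = 0.0274), and 7 of 15 alternatives lost the call, with adjusted p from 0.000362 to 0.228 over them. Leaving out P2 replicate 1, 2 or 3 or CD31+ replicate 2 or 3 was each enough, with log2 fold changes of -0.37 to -0.17. E18.5 against E14.5 gave -0.25 (SE 0.08, adjusted p = 0.0291), lost in 10 of 14 alternatives (0.0114 to 0.890), among them leaving out CD54+CD31- replicate 2 or 3 of E14.5 or replicate 2 of E18.5 (-0.26 to -0.25). It went to -0.014 with the authors' factors (adjusted p = 0.890) and to -0.10 with at least 10 counts in every library (adjusted p = 0.258), and without E18.5 replicate 1 it was -0.21 (adjusted p = 0.0369). In a fit with the replicate block its adjusted p was 0.0580.

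Per exon kb, *Sgpp1* gave 74.4% ± 1.72 (SD, n = 3) of the summed level of these 2 genes in CD31+ cells and 70.4% ± 2.26 in P2 cells. It gave 27.3% ± 0.564 in E14.5 CD54+CD31- cells and 32.0% ± 1.28 at E18.5. The phosphatase transcript thus exceeded that of the lyase in every P2 and CD31+ library and was below it in every CD54+CD31- library.

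Set side by side, the comparisons share libraries and are given each with its own counts. Between P2 and E14.5 CD54+CD31- cells 4 of the 9 genes were called higher and 4 lower in P2, with *Sphk2* not called, where 70.0% of the 15461 genes tested were called, 33.8% higher and 36.1% lower. Against CD31+ cells 3 were higher and 5 lower in P2, with *S1pr3* not called, where 73.7% of all genes were called, 34.3% higher and 39.4% lower. CD31+ against E14.5 CD54+CD31- cells gave 4 higher and 3 lower, where 65.6% were called, 31.7% higher and 34.0% lower. E18.5 against E14.5 gave 3 higher and 4 lower, where 69.4% of 15863 genes were called, 35.9% higher and 33.5% lower. These counts are close to what most genes do in such different populations, and they say nothing particular about the pathway. The median log2 fold changes of the 9 genes were 0.02, -0.37, 0.14 and -0.13 in these 4 comparisons, beside -0.01, -0.13, -0.03 and 0.03 over all genes tested. With the authors' factors in place of TMM, the share of all called genes that were higher in P2 went from 48.3% to 38.2% against E14.5 CD54+CD31- cells and from 46.6% to 33.9% against CD31+ cells.

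**Figure D5:**
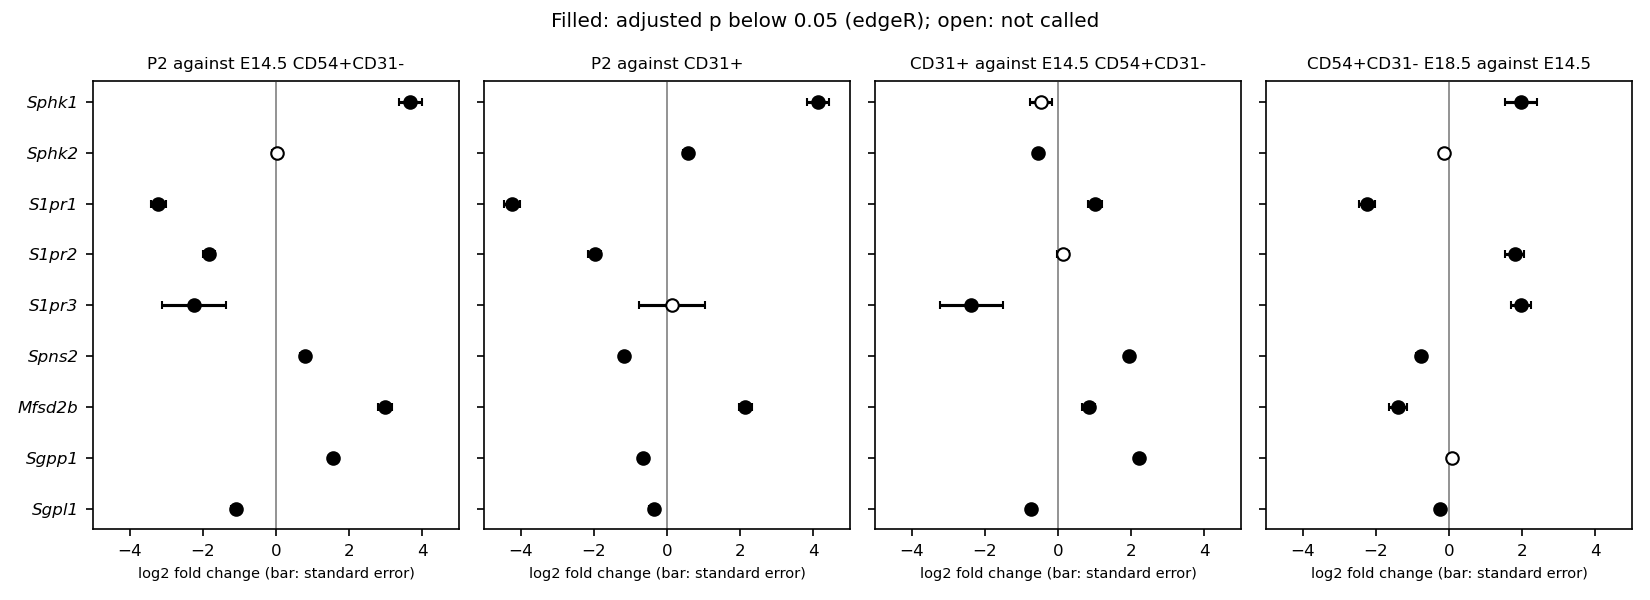
Log2 fold change of each gene (points) with its standard error (bars) in 4 comparisons. Filled points were called by edgeR at an adjusted p below 0.05, and open points were not. *Sphk1* and *Mfsd2b* lie far to the right (3.67 and 2.98) and *S1pr1* far to the left (-3.22) in P2 against E14.5 CD54+CD31- cells, and *Sphk2* is near 0.

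For the order over all 4 groups, P2 and CD31+ cells were also compared with E18.5 CD54+CD31- cells in a fit of all 12 libraries, in which population and age both differ and cannot be told apart. All 9 genes were called between P2 and E18.5 cells, 5 higher and 4 lower in P2, where 80.6% of 16643 genes were called, 36.6% higher and 44.0% lower. *Sphk1* was 3.77-fold (log2 fold change 1.91, SE 0.38, adjusted p = 0.000567) and *Mfsd2b* 23.9-fold (4.58, SE 0.25, adjusted p = 1.44e-08) higher in P2 cells. *S1pr1*, whose libraries overlapped, was 1.72-fold lower in P2 cells (-0.78, SE 0.24, adjusted p = 0.0106), a call lost when only these 6 libraries were fitted (-0.76, adjusted p = 0.0626; range over its alternatives 0.000170 to 0.0626). The *Sphk2* call (0.36, SE 0.14, adjusted p = 0.0365) turned to -0.35 with the authors' factors (adjusted p = 0.0439), and the adjusted p ranged from 0.0110 to 0.689 over its alternatives. It was also lost without any 1 P2 replicate or without E18.5 replicate 2 or 3 (0.30 to 0.36), and with the replicate block its adjusted p was 0.0555. Without E18.5 replicate 1 all 9 genes were again called between P2 and E18.5 cells, where 13343 of 16983 genes were called, 6044 higher and 7299 lower. The log2 fold changes were then 2.43 for *Sphk1*, 4.39 for *Mfsd2b* and 0.47 for *Sphk2*, and the adjusted p was 0.000704 for *S1pr1*. Between CD31+ and E18.5 cells 4 genes were higher and 3 lower in CD31+ cells, where 68.5% of all genes were called, 38.8% higher and 29.7% lower, and without E18.5 replicate 1 *Sgpl1* was called as well (-0.34, adjusted p = 0.0483). With the authors' factors the share of called genes that were higher went from 45.4% to 30.0% in P2 and from 56.7% to 43.2% in CD31+ cells, each against E18.5 cells.

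The wider sphingolipid pathway was followed in 61 further genes, 57 of which could be tested at E14.5. Between P2 and E14.5 CD54+CD31- cells 12 were called higher and 36 lower in P2, beside 33.8% and 36.1% of all genes, with a median log2 fold change of -0.91 against -0.01 over all genes. Between P2 and CD31+ cells 11 were higher and 37 lower (beside 34.3% and 39.4% of all genes, median -0.71 against -0.13), and between CD31+ and E14.5 CD54+CD31- cells 25 were higher and 25 lower (beside 31.7% and 34.0%, median 0.17 against -0.03). At E18.5 against E14.5, 24 of 58 were higher and 18 lower (beside 35.9% and 33.5%, median 0.10 against 0.03), and without E18.5 replicate 1 the counts were 23 and 21. These shares of all genes are the background for the counts of each single list too.

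Ceramide is the precursor of sphingosine. Of 15 tested genes of the steps that make it, 4 were higher and 8 lower in P2 than in E14.5 CD54+CD31- cells. They ran from *Cers3* (log2 fold change 2.12), on 17 to 34 counts against 4 to 5, to *Sptssb* (-6.30). *Sptssb*, a small subunit of the first enzyme, had at most 0.888 CPM in any library. Against CD31+ cells 3 were higher and 8 lower, from *Ormdl2* (1.66), an inhibitor of the first enzyme, to the ceramide synthase *Cers4* (-3.80). *Cers4* was also the gene of this list most above E14.5 CD54+CD31- cells in CD31+ cells (5.35), where 6 genes were higher and 6 lower, and it had 35.7 ± 4.43 CPM (SD, n = 3) there. At E18.5 7 of 16 were higher than at E14.5 and 3 lower, led by the ceramide synthase *Cers3* (6.34, from 0.133 ± 0.0303 to 9.49 ± 2.71 CPM) and with *Ormdl2* lowest (-1.56). Without E18.5 replicate 1 there were 6 higher and 4 lower, with *Cers3* at 6.06 and *Ormdl2* at -1.43.

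Among 15 tested genes of ceramide, sphingomyelin and sphingosine turnover, 3 were higher and 9 lower in P2 than in E14.5 CD54+CD31- cells, and 3 higher and 11 lower than in CD31+ cells. *Ugcg*, which adds glucose to ceramide, led both (2.83 and 1.55), with 190 ± 25.6 CPM (SD, n = 3) in P2 cells, 64.2 ± 14.2 in CD31+ cells and 26.4 ± 2.75 in E14.5 CD54+CD31- cells. The lowest were the sphingomyelin synthase *Sgms2* (-5.88) and the ceramidase *Asah2* (-4.99). CD31+ cells exceeded E14.5 CD54+CD31- cells in 6 genes, led by the ceramidase *Acer2*, which releases sphingosine (4.04, 136 ± 9.66 against 8.23 ± 0.298 CPM), and were below in 6, with the sphingomyelinase *Smpd3* lowest (-2.47). At E18.5 8 were higher, led by *Smpd3* (2.06), and 3 lower, with *Sgms2* lowest (-0.85). Without E18.5 replicate 1 there were 8 higher and 5 lower, with *Smpd3* at 1.96 and *Sgms2* at -0.55.

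Of the 2 other receptors and 4 other phosphatases that can act on S1P, 2 were higher and 4 lower in P2 than in E14.5 CD54+CD31- cells, between *S1pr4* (3.54) and *Plpp2* (-3.20), and none was higher and 3 lower than in CD31+ cells. *Plpp3*, a cell surface lipid phosphatase, was the lowest of these (-5.75), with 474 ± 40.9 CPM (SD, n = 3) in CD31+ cells, 42.8 ± 5.27 in E14.5 CD54+CD31- cells and 8.85 ± 7.51 in P2 cells. CD31+ cells exceeded E14.5 CD54+CD31- cells in 4 of these 6 genes, led by *Plpp3* (3.46). They were below in 2, with *S1pr5* lowest (-3.26), on 1 to 7 counts against 11 to 31. At E18.5 1 of 5 was higher, the phosphatase *Sgpp2* (5.02, 10.1 ± 3.76 against 0.348 ± 0.118 CPM), and 3 were lower, with *Plpp2* lowest (-1.89). Without E18.5 replicate 1 there were 2 higher and 3 lower, with *Sgpp2* at 4.65 and *Plpp2* at -1.80.

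Carriers of S1P in plasma and other candidate lipid exporters were set apart by the liver genes. Of 5 tested, 1 was higher in P2 than in E14.5 CD54+CD31- cells, the pump *Abcc1* (2.60), and 4 lower, with *Apom* lowest (-6.92). *Apom*, the S1P carrier of high-density lipoprotein, had 1096 ± 66.5 CPM (SD, n = 3) in E14.5 CD54+CD31- cells, 12.9 ± 2.33 in CD31+ cells and 9.13 ± 1.32 in P2 cells. Against CD31+ cells none was higher in P2 and 4 were lower, with *Abcg1* lowest (-4.34), and in CD31+ against E14.5 CD54+CD31- cells 2 were higher, led by *Abcg1* (3.43), and 3 lower, with *Alb* lowest (-6.56). At E18.5 *Apom* was lower (-3.76, adjusted p = 0.00785), at 7.83 to 117 CPM, and 1 further gene was lower. The 2 that were higher were led by *Mfsd2a* (2.24), which had at most 0.789 CPM. Without E18.5 replicate 1 *Apom* was at -3.24 (adjusted p = 3.49e-07), *Mfsd2a* was no longer called (1.21, adjusted p = 0.105), and 1 gene was higher and 2 lower.

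The 6 genes that handle the products of the lyase, a fatty aldehyde and phosphoethanolamine, were all lower in P2 and all lower in CD31+ than in E14.5 CD54+CD31- cells, where 36.1% and 34.0% of all genes were lower. The fatty aldehyde dehydrogenase *Aldh3a2* was lowest in P2 cells (-3.39, 18.0 ± 1.60 against 187 ± 4.99 CPM, SD, n = 3) and *Pcyt2*, of phosphatidylethanolamine synthesis, was lowest in CD31+ cells (-3.45). Against CD31+ cells 4 were higher in P2, led by *Selenoi* (1.69), and 2 lower, with *Aldh3a2* lowest (-0.64). At E18.5 none was higher and 4 were lower, with *Acsl3* lowest (-1.68), and the counts were the same without E18.5 replicate 1, with *Acsl3* at -1.51.

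The genes whose pattern was most like each member were found by the root mean square difference of centred log2(CPM + 1) over the 12 libraries, among 13212 genes with a mean of at least 1 CPM. For *Mfsd2b* they were *Btk* (0.22), *Gm11427* (0.24) and *Spire1* (0.25), where the median over all genes was 1.68. For *Sphk1* they were *Mbp* (0.52), *Ces2g* (0.54) and *Adcy7* (0.56), so no gene came close to its pattern (median 1.73). *S1pr1* was most like *Cotl1* (0.26), *Myo7a* (0.28) and *Asb4* (0.29). *Spns2* was nearest to *Slc16a13*, *Ap2s1* and *Mgat4b* (0.24 to 0.25), and *Sgpp1* to *Cdk17*, *Tiam1* and *Kif21b* (0.15 to 0.17). The remaining 4 genes had nearest genes at 0.11 to 0.23, namely *Ago1*, *Ube2j1* and *Arhgap21* for *Sphk2*, *Dennd1c*, *Aktip* and *Slc35e3* for *S1pr2*, *Akap13*, *Zbtb32* and *Gata5* for *S1pr3*, and *Sec16a*, *A230046K03Rik* and *Nr2c1* for *Sgpl1*.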

How the data were processed

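RNA of 4 sorted populations (12 libraries) was analysed. The authors trimmed reads with cutadapt 1.11, aligned them to GRCm38 with STAR 2.5.0a and counted reads per gene with featureCounts 1.4.6-p3, per the labels and submitters' processing notes. Whether counting used strand, and how multi-mapped reads were treated, is not given in the sources used here. The authors deposited raw counts per gene, and a score that is the count times 1 factor per library, rounded (DESeq2 in R 3.5.1, per the labels). Tests rest on the counts alone, and the score served to recover these factors.

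Genes were matched by identifier (39 of the names occur more than once, and 37932 of 38127 identifiers were found in GENCODE vM21, the source of coordinates and exon lengths). Tests used R 4.3.3 and edgeR 4.0.16 (TMM, filterByExpr, quasi-likelihood test, Benjamini-Hochberg adjustment). The 9 E14.5 libraries were fitted together, the 6 CD54+CD31- libraries apart, and all 12 for comparisons of P2 and CD31+ with E18.5 cells. Levels are CPM with TMM over 12 libraries. The levels at E18.5 and the tests of E18.5 against E14.5 are therefore on different scales. Between these 2 fits the median log2 fold change of all genes differed by -0.17. Standard errors come from the size of the log2 fold change and its F statistic. The Sphk1 share was compared by exact permutation tests (scipy 1.17.1). The test code was tried on simulated data. No replicate pair looked like 1 library deposited again (lowest chi-square of a pair, divided by its degrees of freedom, 38.6). For most members counting error is small at these depths, and the number of libraries limits the precision. It is not small for *S1pr3* at E14.5 or for named genes with few counts, such as *S1pr5*, *Sptssb* and *Mfsd2a*.

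The members and lists were chosen with earlier results of these data known. The genes named are the 9 members, the gene with the largest called change in each direction of each pathway list and comparison, and the 3 genes most like each member in pattern; *S1pr4* and *Mybbp1a* were also described for their receptor role and overlap. Alternatives were DESeq2's size factors, the authors' factors, DESeq2 1.42.0, no filter beyond 1 count, at least 10 counts in every library, genes above 1% of a library left out, the replicate number as a block, other sets of libraries in the fit, and each library left out in turn. For levels and the Sphk1 share they were other scaling, no division by exon length and each library left out. Promoter windows and start sites are from RefSeq. Of the 6 pathway lists, 1 is not reported here on its own.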

Additional observations from a re-analysis of the deposited data

How the results depend on the processing

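The direction and call of *Sphk1*, *Mfsd2b*, *Spns2* and *S1pr1* between P2 and each other E14.5 population held under each of 15 alternatives, with log2 fold changes against E14.5 CD54+CD31- cells of 3.41 to 3.99, 2.73 to 3.17, 0.52 to 0.90 and -3.53 to -3.07. The authors' factors shifted the median log2 fold change of all genes by -0.26 (P2 against E14.5 CD54+CD31-), -0.37 (P2 against CD31+), 0.11 (CD31+ against E14.5 CD54+CD31-), 0.23 (E18.5 against E14.5), -0.70 (P2 against E18.5) and -0.32 (CD31+ against E18.5). DESeq2's size factors shifted the last 2 by -0.10 and -0.15. CD31+ against E18.5 also shifted by -0.20 with no low count filter and by -0.18 with at least 10 counts in every library. With only the 6 libraries compared it shifted by -0.19. P2 against E18.5 shifted by 0.23 with at least 10 counts in every library. E18.5 against E14.5 shifted by -0.17 with all 12 libraries in one fit. Small differences changed sign under some settings, and the cause was not tested. *Sphk2* in P2 against E14.5 CD54+CD31- cells went to -0.24 with the authors' factors, -0.074 with at least 10 counts in every library, -0.00060 with only the 6 libraries compared and -0.0070 without CD54+CD31- replicate 2 (up to 0.064 without other libraries). In E18.5 against E14.5 it went to 0.11 with the authors' factors and 0.019 with at least 10 counts, and in P2 against E18.5 to -0.35 with the authors' factors. *S1pr3* in P2 against CD31+ cells went to -0.27 with the authors' factors, -0.69 without P2 replicate 1 and -0.30 without CD31+ replicate 2 (up to 0.98 without other libraries). *S1pr2* in CD31+ against E14.5 CD54+CD31- cells went to -0.041 without CD31+ replicate 2 (up to 0.24 without other libraries), and *Sgpp1* in E18.5 against E14.5 to -0.10 with all 12 libraries in one fit. The Sphk1 share in E14.5 CD54+CD31- minus CD31+ cells ranged from -4.27 to 2.16 percentage points when single libraries were left out.

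In P2 against E18.5 cells the genes called higher went to 4051 and the other pathway genes called higher to 7 with the authors' factors (6088 and 13 as reported). In CD31+ against E18.5 cells the members called lower went from 3 to 5 with DESeq2's size factors, the authors' factors, no low count filter and DESeq2. All genes called lower went from 4937 to 5487, 6228, 5925 and 5630 in these settings, of 24004 tested without the filter and 16643 in the others. *Sphk2* and *Sgpl1* were then called. They were also called with at least 10 counts in every library (-0.55, adjusted p = 0.00288, and -0.61, adjusted p = 0.00122). Of 14 alternatives, 6 called *Sphk2* and 8 called *Sgpl1*. With at least 10 counts in every library, 11961 genes were tested in place of 16643. The genes called higher then went from 6461 to 4262 and those called lower from 4937 to 4199. The share of called genes that were higher went from 56.7% to 50.4%, so the balance of the calls moved too. With the replicate block, *Sgpl1* in E18.5 against E14.5 (-0.25, adjusted p = 0.0580) and *Sphk2* in P2 against E18.5 (0.36, adjusted p = 0.0555) lost their calls, and no other member's call changed. The check used cannot tell whether the numbers pair the libraries, since libraries of the same litter could also correlate weakly. The correlations of same-numbered libraries' deviations ran from -0.008 to 0.169, and not every pair was above 0.1. Each P2 library did correlate best with the CD31+ library of its number, and each CD31+ library with the E14.5 CD54+CD31- library of its number, a hint from the data and not from the design, but this did not hold in the other comparisons. *S1pr3* rests on as few as 1 count per library, which limits its comparisons at E14.5.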
